A study of Mus musculus with 11 samples.

Results

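The genes described here are the 6 genes of the Fc receptor system for IgG that were listed by name, Fcgr1, Fcgr2b, Fcgr3, Fcgr4, Fcer1g and Fcgrt, found by symbol among the 37583 genes of the deposited table of expression levels. All 6 were present, and all 6 were among the 15116 genes with enough reads to be tested. RNA had been sequenced from mononuclear phagocytes of the mouse epididymis, the coiled duct in which sperm mature on their way from the testis. The sorted cells were EGFP+ CX3CR1+ cells of CX3CR1 EGFP +/- mice aged 12 weeks. In these animals EGFP is expressed under the control of the gene of the fractalkine receptor, Cx3cr1, and every library carries the same genotype, so that no library without the reporter was compared. The initial segments (IS, the stretch nearest the testis) gave 4 libraries, the caput/corpus 3, and the cauda, where sperm are stored, 4, with 4 epididymides in each library. The labels do not say which animals gave which library, so the p-values measure the spread between these libraries. The sample titles fall into a Maj3 series of 5 libraries (IS replicates 1 and 2, caput/corpus replicate 1, cauda replicates 1 and 2) and a Maj4 series of the other 6, and each series holds all 3 regions.

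Fc gamma receptors bind the constant part of IgG and let phagocytes respond to antibody-coated particles. The activating receptors, encoded by Fcgr1, Fcgr3 and Fcgr4, signal through a shared gamma chain encoded by Fcer1g, whose tail carries an activation motif (ITAM) that recruits the kinase Syk once phosphorylated. Fcgr2b encodes the inhibitory receptor, whose own tail carries an inhibition motif (ITIM) that recruits the inositol phosphatase encoded by Inpp5d. Fcgrt encodes the heavy chain of the neonatal Fc receptor, which pairs with B2m and returns IgG from acidic endosomes to the cell surface, so that it handles IgG without being a phagocytic receptor.

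The sequences that separate the activating from the inhibitory arm are the signalling motifs, read here from the GENCODE M21 transcripts on build GRCm38. The Fcer1g motif lies in exons 4 to 5 at chr1:171229877-171230084 on the minus strand, a span that includes the intron between them, and the Fcgr2b motif lies in exon 10 at chr1:170961059-170961100 on the minus strand. Both runs are coding, and the capitals mark the tyrosine codons and the aliphatic codons that define each motif.
Fcer1g ITAM: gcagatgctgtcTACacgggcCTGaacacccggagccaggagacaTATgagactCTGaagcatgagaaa
Fcgr2b ITIM: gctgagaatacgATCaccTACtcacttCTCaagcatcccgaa
A search of the 6 coding sequences for the pattern of a tyrosine codon followed at the fixed spacing by a leucine or isoleucine codon, and the same again after a short spacer, gave 1 match in Fcer1g and 0 in each of the other 5 genes. The looser ITIM pattern matched once in Fcgr2b, Fcgr4, Fcer1g and Fcgrt, 3 times in Fcgr1 and 0 times in Fcgr3. These matches are letters in frame and not sites shown to work.

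On GRCm38, Fcgr2b (chr1:170958617-170976547), Fcgr4 (chr1:171018920-171029761), Fcgr3 (chr1:171051174-171064935) and Fcer1g (chr1:171229572-171234365) lie close together on chromosome 1. Fcgr1 lies at chr3:96282909-96293969 and Fcgrt at chr7:45092990-45103851. The Fcgr2b and Fcgr3 coding sequences were identical at 86.7% of 782 aligned bases, whereas the other pairs of Fcgr genes were identical at 64.1% to 68.6%. The longest stretch common to both coding sequences is 129 bases long, and it is shown because a read that falls inside it cannot be placed on either gene.
Fcgr2b and Fcgr3 common stretch: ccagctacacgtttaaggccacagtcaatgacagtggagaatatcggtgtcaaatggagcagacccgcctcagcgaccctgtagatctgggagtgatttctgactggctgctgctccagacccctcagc
It spans exons 5 to 6 of Fcgr2b at chr1:170966674-170968081 and exons 3 to 4 of Fcgr3 at chr1:171054167-171057792, both on the minus strand. Of all runs of 50 bases in the transcript, 17.9% for Fcgr2b and 12.8% for Fcgr3 occurred in another gene, and 0% for Fcgr1, Fcgr4, Fcer1g and Fcgrt. The 166 shared runs of Fcgr3 were shared with Fcgr2b. The 273 of Fcgr2b were shared with Fcgr3 or with Gm38204, which overlaps Fcgr2b on the opposite strand and is not among the genes counted. The counts rest on reads placed on a single gene, so the levels of Fcgr2b and Fcgr3 leave out reads from the sequence that these genes share with each other. Counting was not stranded, so reads from Gm38204, which is antisense to Fcgr2b, and from Gm45669, which is antisense to Fcgrt, cannot be told apart from those of the sense gene.

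Libraries held 16873180 to 31737132 reads on genes, and no gene of the 6 had fewer than 1660 reads in any library. For 3 samples the deposited count file and the column of the level table that carries the sample's name held different reads. The column named for the sample was used throughout, and results are also given for the 8 libraries without such a conflict and for the count files as filed. The cauda replicate 1 column equalled no count file and stood apart, with reads on 13434 genes against 17053 to 18837 in the other libraries. The reads not uniquely aligned were 27.6% to 35.8% in the Maj3 files and 12.5% to 14.7% in the Maj4 files.

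Between IS and cauda, 3 of the 6 genes were called, Fcgr4, Fcgr3 and Fcgr1, and all 3 were higher in IS. They are the 3 activating receptors. The inhibitory receptor Fcgr2b, the shared chain Fcer1g and the recycling receptor Fcgrt did not pass the test. A gene was called when edgeR's quasi-likelihood test, fitted to all 11 libraries with the title series as a covariate, gave a Benjamini-Hochberg adjusted p under 0.05 over all 15116 genes. In this comparison 16.5% of all genes tested were called, of which the larger share (9.06% of genes tested) was higher in cauda and the rest (7.4%) higher in IS. The median log2 difference of IS over cauda was 0.42 over the 6 genes and 0.05 over all genes tested.

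**Figure D1:**
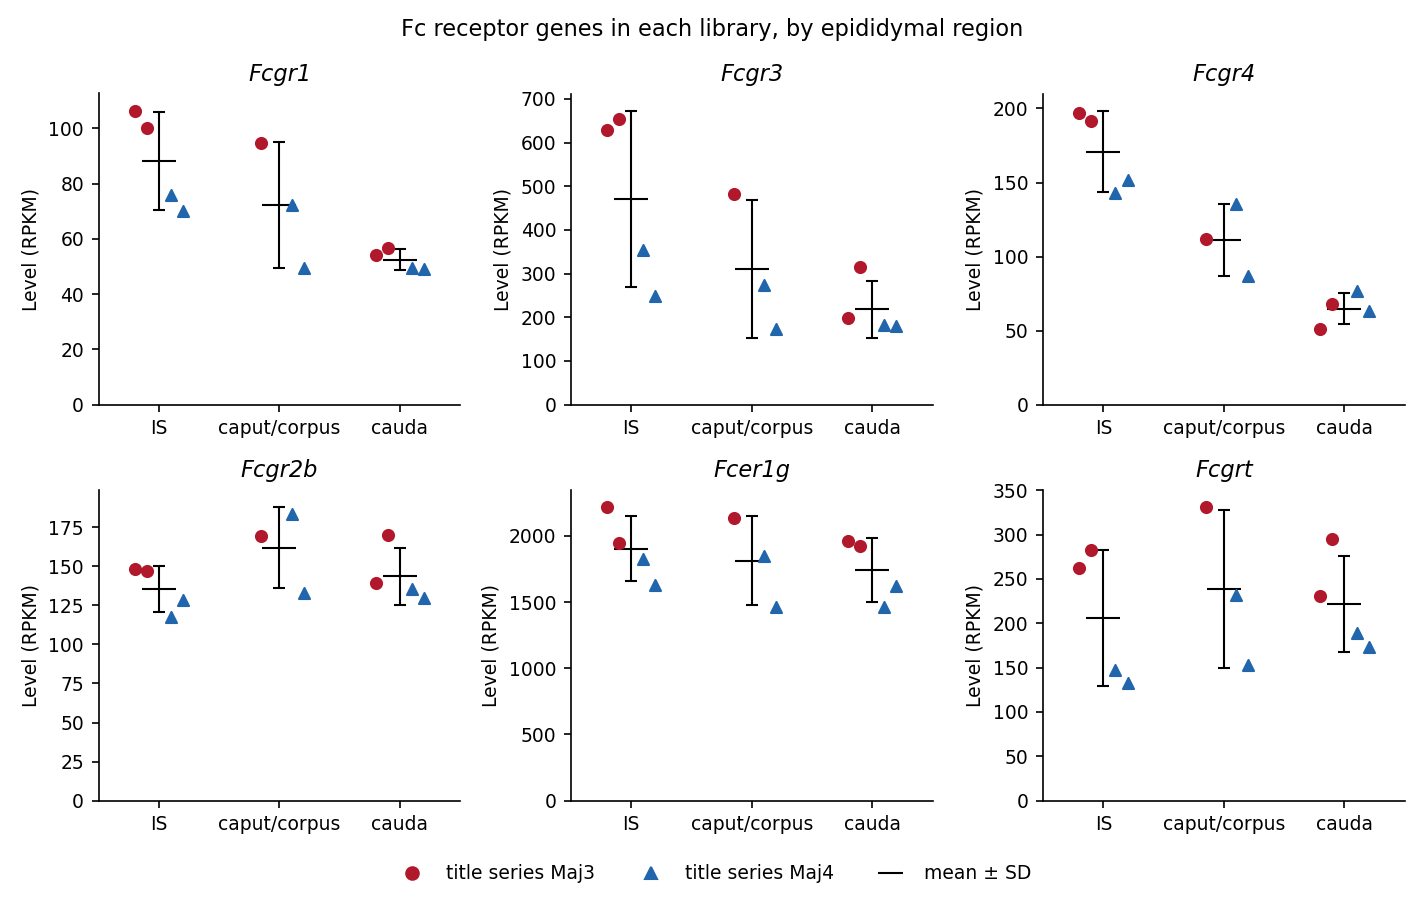
Expression level in RPKM (reads scaled to gene length and library size) of each of the 6 genes in each library, by region, with Maj3 libraries as red circles, Maj4 libraries as blue triangles, and the mean ± SD of each region as black bars. The 3 regions do not overlap for Fcgr4, whereas the regions overlap for Fcgr2b, Fcer1g and Fcgrt. The share of all genes whose 3 regions do not overlap was not counted.

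Fcgr4 encodes an activating receptor of intermediate affinity that binds mouse IgG2a and IgG2b. Its level in RPKM was 197, 191, 143 and 152 in IS replicates 1 to 4. It was 112, 135 and 86.6 in caput/corpus replicates 1 to 3 and 51.1, 68.1, 76.6 and 63.4 in cauda replicates 1 to 4. The lowest IS library stood above the highest caput/corpus library, and the lowest caput/corpus library above the highest cauda library. The regional means were 171 ± 27.4 (SD, n = 4) in IS, 111 ± 24.3 (SD, n = 3) in caput/corpus and 64.8 ± 10.6 (SD, n = 4) in cauda. The level was 2.61-fold higher in IS than in cauda, a log2 difference of 1.39 ± 0.18 (SE) with an edgeR adjusted p of 0.000666. Genes whose IS libraries all stood above all cauda libraries made up 10.6% of those tested. The share whose 3 regions all separate was not counted.

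Fcgr4 was also the member with the largest estimated differences in the other comparisons, though neither passed the threshold. The log2 difference of IS over caput/corpus was 0.60 ± 0.19 (edgeR adjusted p = 0.143), in a comparison in which 3.78% of genes were called and 6.82% had IS libraries that all stood above the caput/corpus libraries. The log2 difference of cauda over caput/corpus was -0.79 ± 0.19 (edgeR adjusted p = 0.115), in a comparison in which 0.615% of genes were called and 6.52% had caput/corpus libraries all above the cauda libraries. DESeq2 called both, at an adjusted p of 0.0249 for IS over caput/corpus and 0.00384 for cauda over caput/corpus. It also called more genes, 1262 and 637 of 15116 in these comparisons, against 571 and 93 by edgeR.

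Fcgr3 encodes the low-affinity activating receptor that is widely expressed on mouse myeloid cells. Its level was 628, 653, 353 and 248 RPKM in IS replicates 1 to 4, 483, 274 and 173 RPKM in caput/corpus replicates 1 to 3, and 198, 316, 182 and 179 RPKM in cauda replicates 1 to 4. The IS and cauda libraries overlapped, because cauda replicate 2 stood above IS replicate 4. Within each title series, with only 2 libraries against 2, they did not. The levels were 628 to 653 against 198 to 316 RPKM in Maj3 and 248 to 353 against 179 to 182 RPKM in Maj4. The share of all genes that separate in this way was not counted. The means were 471 ± 201 (SD, n = 4), 310 ± 158 (SD, n = 3) and 219 ± 65.1 (SD, n = 4) RPKM in IS, caput/corpus and cauda. Fcgr3 was 2.02-fold higher in IS than in cauda (log2 difference 1.01 ± 0.21, edgeR adjusted p = 0.0087). It was not called for IS over caput/corpus (0.45 ± 0.23, edgeR adjusted p = 0.415) or for cauda over caput/corpus (-0.57 ± 0.22, edgeR adjusted p = 0.347). Voom with quality weights called it for IS over caput/corpus at an adjusted p of 0.0486, among 1707 of 15116 genes called.

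Fcgr1 encodes the high-affinity receptor, which can bind IgG before it is complexed with antigen. Its level was 106, 99.9, 76.0 and 70.2 RPKM in IS replicates 1 to 4, 94.9, 72.3 and 49.5 RPKM in caput/corpus replicates 1 to 3, and 54.3, 56.8, 49.5 and 49.3 RPKM in cauda replicates 1 to 4. Every IS library stood above every cauda library, and the caput/corpus libraries ran from the level of cauda to that of IS. The spread was 3.71 RPKM (SD) about a mean of 52.5 in cauda, against 17.7 about 88.1 in IS and 22.7 about 72.2 in caput/corpus. Fcgr1 was 1.65-fold higher in IS than in cauda (log2 difference 0.72 ± 0.13, edgeR adjusted p = 0.00488). Neither IS over caput/corpus (0.22 ± 0.14, edgeR adjusted p = 0.585) nor cauda over caput/corpus (-0.50 ± 0.14, edgeR adjusted p = 0.188) passed the test. DESeq2 called the latter at an adjusted p of 0.023, among 637 of 15116 genes called.

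The calls depended on how many libraries entered and on which reads were used. In the 8 libraries without a conflict all 3 activating receptors were still called, with log2 differences of IS over cauda of 1.23 (adjusted p = 0.00355) for Fcgr4, 0.82 (adjusted p = 0.0235) for Fcgr3 and 0.68 (adjusted p = 0.0221) for Fcgr1 by edgeR. With the count files as filed none was called by edgeR, at 0.96 (adjusted p = 0.0969), 0.49 (adjusted p = 0.366) and 0.40 (adjusted p = 0.308). Within Maj4 alone the edgeR differences were 1.08 (adjusted p = 0.0337), 0.74 (adjusted p = 0.137) and 0.57 (adjusted p = 0.143) for Fcgr4, Fcgr3 and Fcgr1. Within Maj3 alone they were 1.75 (adjusted p = 0.0777), 1.37 (adjusted p = 0.166) and 0.94 (adjusted p = 0.104). All of these differences were positive, and Fcgr4 was the only one of the 3 called within a single title series. Over all genes, edgeR called 2409 of 15280 in the 8 libraries and 1144 of 14910 within Maj4. Few genes passed in the other settings, 30 of 16119 within Maj3 and 4 of 15198 with the counts as filed.

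**Figure D2:**
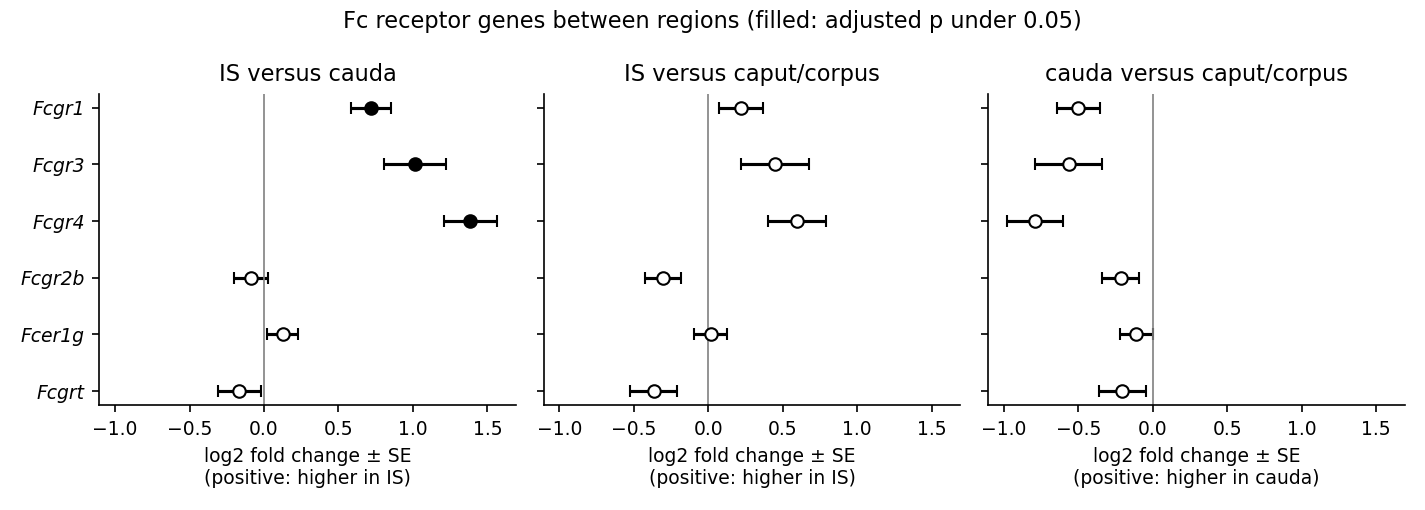
Log2 difference ± SE of each gene in the 3 comparisons between regions, from the edgeR fit of 11 libraries, with filled points where the adjusted p was under 0.05. Filled points are the 3 activating receptors in IS versus cauda, at 0.72, 1.01 and 1.39.

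Fcgr2b, the inhibitory receptor, took similar values in all regions. It stood at 148, 147, 118 and 129 RPKM in IS replicates 1 to 4, 169, 183 and 133 RPKM in caput/corpus replicates 1 to 3, and 139, 170, 135 and 130 RPKM in cauda replicates 1 to 4. The regions overlapped throughout. The log2 difference of IS over cauda was -0.09 ± 0.11 (edgeR adjusted p = 0.655), and the interval of 2 SE on each side ran from -0.32 to 0.14. For IS over caput/corpus it was -0.30 ± 0.12 (edgeR adjusted p = 0.265), with an interval from -0.55 to -0.06. For cauda over caput/corpus it was -0.21 ± 0.12 (edgeR adjusted p = 0.553), with an interval from -0.46 to 0.03.

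Fcer1g, the chain that the activating receptors need for surface expression and signalling, had the highest level of the 6 genes in all 11 libraries. It stood at 2218, 1944, 1828 and 1629 RPKM in IS replicates 1 to 4, 2134, 1849 and 1460 RPKM in caput/corpus replicates 1 to 3, and 1961, 1921, 1464 and 1624 RPKM in cauda replicates 1 to 4. The regions overlapped, and within each the lowest libraries were those of Maj4. IS over cauda gave a log2 difference of 0.13 ± 0.10 (edgeR adjusted p = 0.469, 2 SE interval -0.08 to 0.33). It was 0.02 ± 0.11 for IS over caput/corpus (edgeR adjusted p = 0.983) and -0.11 ± 0.11 for cauda over caput/corpus (edgeR adjusted p = 0.777).

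Fcgrt, the heavy chain of the neonatal Fc receptor, separated the title series within each region, whereas its regions overlapped. It stood at 262 and 282 RPKM in the Maj3 libraries of IS and at 147 and 133 in those of Maj4. It stood at 331 RPKM in the Maj3 library of caput/corpus against 232 and 153 in Maj4, and at 231 and 295 RPKM in the Maj3 libraries of cauda against 189 and 174 in Maj4. In each region every Maj3 library stood above every Maj4 library. Across regions the series met, since the Maj3 cauda library at 231 RPKM lay just below the Maj4 caput/corpus library at 232. The share of all genes that separate the series within each region was not counted. IS over cauda gave a log2 difference of -0.16 ± 0.15 (edgeR adjusted p = 0.514, 2 SE interval -0.46 to 0.13). For IS over caput/corpus it was -0.37 ± 0.16 (edgeR adjusted p = 0.31), and for cauda over caput/corpus -0.20 ± 0.16 (edgeR adjusted p = 0.689). Its partner B2m, the light chain of the receptor, was at 4581 ± 986 (SD, n = 4) CPM (reads per 1000000, after scaling of library sizes) in IS and 3994 ± 470 (SD, n = 4) in cauda and was not called in any of the 3 comparisons.

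The difference between the title series was tested in the same fit, a test chosen after the data had been seen. By edgeR, 4 of the 6 genes were higher in Maj3, where 20.3% of all genes tested were called in either direction. The log2 difference of Maj3 over Maj4 was 0.87 ± 0.18 for Fcgr3 (edgeR adjusted p = 0.00731) and 0.75 ± 0.13 for Fcgrt (edgeR adjusted p = 0.00287). It was 0.40 ± 0.11 for Fcgr1 (edgeR adjusted p = 0.032) and 0.31 ± 0.09 for Fcer1g (edgeR adjusted p = 0.0339). Fcgr2b (0.20 ± 0.10) and Fcgr4 (0.06 ± 0.15) were not called. Fcgr4 thus had the largest log2 difference between IS and cauda and the smallest between the title series. A test of whether a regional difference itself differed between the title series called 0 of the 6 genes and 0.0% of all genes by edgeR in each comparison. For the 6 genes the smallest unadjusted p was 0.0882, for Fcgr4 in IS over cauda, which was higher by 0.63 ± 0.32 in Maj3 than in Maj4. Without the title series in the fit, Fcgr3 was no longer called between IS and cauda (log2 difference 1.10, edgeR adjusted p = 0.0899).

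Because levels in RPKM are scaled to gene length, the genes can be ordered within a region, but the order depends on the lengths used. The deposited lengths were 4205 bases for Fcgr2b, 2303 for Fcgr3 and 1251 for Fcgr4. The GENCODE transcripts used above have 1578, 1347 and 1256 bases. A shorter length for Fcgr2b would raise its level relative to Fcgr4, so the order of that pair within a library rests on the deposited lengths. By mean level the order in IS was Fcer1g, Fcgr3, Fcgrt, Fcgr4, Fcgr2b and Fcgr1, and in cauda it was Fcer1g, Fcgrt, Fcgr3, Fcgr2b, Fcgr4 and Fcgr1. In IS the libraries of Fcgrt (133 to 282 RPKM) overlapped those of Fcgr4 (143 to 197) and of Fcgr2b (118 to 148). Fcgr4 stood above Fcgr2b in all 4 IS libraries and below it in all 4 cauda and all 3 caput/corpus libraries. In cauda the lowest Fcgr4 library (51.1 RPKM) fell within the range of Fcgr1 (49.3 to 56.8 RPKM).

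The balance between activating and inhibitory receptors was followed as the ratio of each activating gene to Fcgr2b within a library, which needs no scaling between libraries. The size of a ratio depends on the gene lengths used, whereas its log2 difference between regions does not. The ratio of Fcgr4 to Fcgr2b in RPKM was 1.25 ± 0.0709 (SD, n = 4) in IS, 0.682 ± 0.0473 (SD, n = 3) in caput/corpus and 0.456 ± 0.0896 (SD, n = 4) in cauda. It ran from 1.18 to 1.33 in IS, 0.65 to 0.737 in caput/corpus and 0.367 to 0.566 in cauda, so that no 2 regions overlapped. The share of all genes whose ratio to Fcgr2b separates regions was not counted. The ratio also takes in Fcgr2b, whose own log2 difference of IS over caput/corpus was -0.30 ± 0.12 (edgeR adjusted p = 0.265). The ratio of Fcgr1 to Fcgr2b fell from 0.646 ± 0.0733 in IS to 0.367 ± 0.0247 in cauda, with 0.442 ± 0.103 in caput/corpus. The ratio of Fcgr3 to Fcgr2b ran from 1.92 to 4.43 in IS, 1.30 to 2.86 in caput/corpus and 1.35 to 1.85 in cauda, and the IS and cauda libraries did not overlap. The ratio of the shared chain Fcer1g to Fcgr2b was 14.1 ± 1.37 in IS, 11.2 ± 1.28 in caput/corpus and 12.2 ± 1.47 in cauda (SD). For that ratio the lowest IS library (12.7) stood just above the highest caput/corpus library (12.6), and the cauda libraries (10.8 to 14.1) overlapped both.

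**Figure D3:**
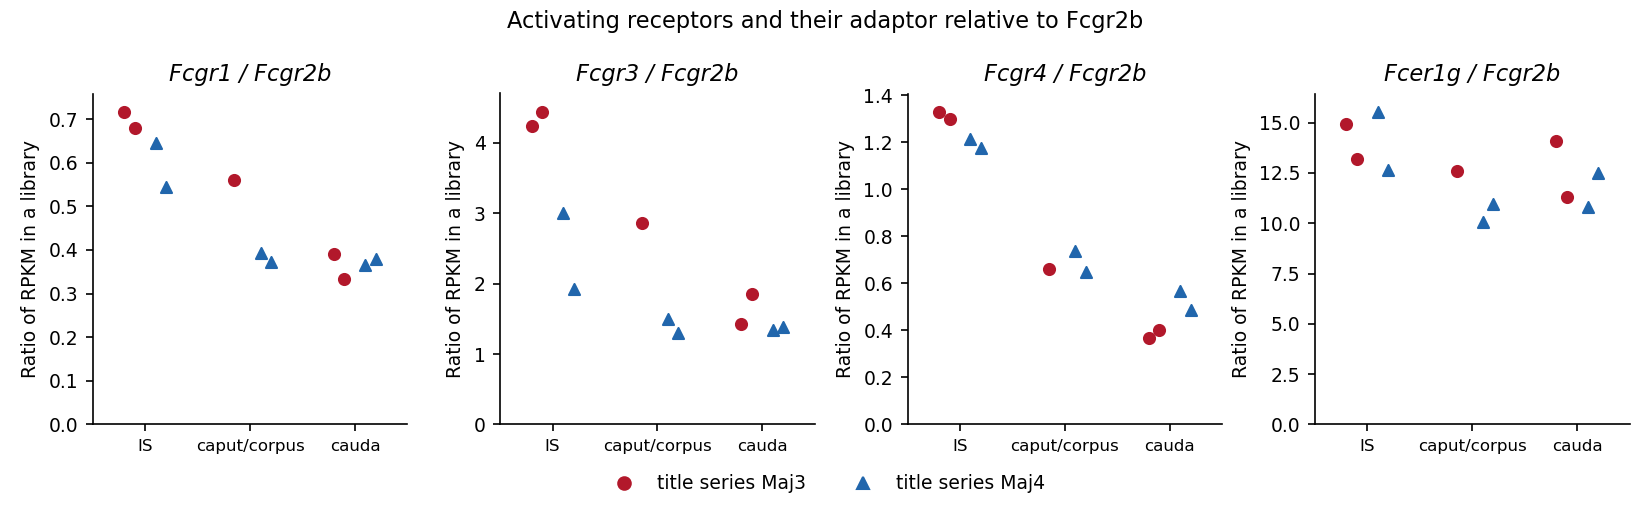
Ratio of the RPKM level of Fcgr1, Fcgr3, Fcgr4 and Fcer1g to that of Fcgr2b in each library, by region, with Maj3 libraries as red circles and Maj4 libraries as blue triangles. The ratio of Fcgr4 takes separate ranges in the 3 regions, from 1.18 to 1.33 in IS down to 0.367 to 0.566 in cauda.

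A two-sided exact permutation test of the log2 ratio was run for these 4 genes in the 3 comparisons, 12 tests in all. The exact p was 0.0286 for Fcgr1, Fcgr3 and Fcgr4 in IS over cauda and for Fcgr4 in IS over caput/corpus, which is the smallest p that 4 against 4 or 4 against 3 libraries allow. Adjusted over the 12 tests these exact permutation p-values became 0.0857, so that 0 of 12 passed an adjusted p of 0.05. A test at that smallest p can pass only if most of the 12 reach it together. The count of 0 therefore cannot decide whether a ratio differed between regions. The log2 ratio was higher in IS than in cauda by 1.48 for Fcgr4, 1.12 for Fcgr3 and 0.81 for Fcgr1. For Fcer1g it was higher by 0.21 (exact permutation p = 0.114).

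The promoters of the 6 genes were searched for 3 short motifs, and any link between a motif and the calls between regions was not tested. The windows were the 250 bases before the RefSeq start of each gene on GRCm38.p6, and all 6 genes had an entry. The Fcgr2b window, chr1:170976072-170976321 on the minus strand, lies inside the GENCODE gene, which runs to 170976547. Sequence before that GENCODE start of Fcgr2b was therefore not searched. The Fcgr3 window lies directly before the GENCODE transcript used above but inside the GENCODE gene, which runs to 171064935. The motif GAGGAA, the core of the box bound by the myeloid factor PU.1, was searched on both strands. It occurred in Fcgr1, in Fcgr3 and in Fcgr4, and not in the window of Fcgr2b, Fcer1g or Fcgrt. Of 32851 promoters of the same length, 23.3% held it. TTCNNNGAA, the core of STAT sites, occurred in Fcgr1 alone of the 6 genes and in 7.02% of promoters, and a pair of GAAA runs with any 2 bases between them, the core of interferon response elements, in Fcgr4 alone and in 2.98%. The windows of the 3 called receptors are chr3:96293970-96294219 on the minus strand, chr1:171059404-171059653 on the minus strand and chr1:171018676-171018925 on the plus strand. They are printed with every match in capitals, in which GAGGAA on the other strand reads TTCCTC, and no match overlapped another.
Fcgr1 promoter: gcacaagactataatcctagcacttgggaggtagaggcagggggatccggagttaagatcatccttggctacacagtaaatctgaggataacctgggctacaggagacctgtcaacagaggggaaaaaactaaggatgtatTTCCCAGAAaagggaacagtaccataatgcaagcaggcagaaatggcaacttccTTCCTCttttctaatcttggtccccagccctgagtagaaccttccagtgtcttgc
Fcgr3 promoter: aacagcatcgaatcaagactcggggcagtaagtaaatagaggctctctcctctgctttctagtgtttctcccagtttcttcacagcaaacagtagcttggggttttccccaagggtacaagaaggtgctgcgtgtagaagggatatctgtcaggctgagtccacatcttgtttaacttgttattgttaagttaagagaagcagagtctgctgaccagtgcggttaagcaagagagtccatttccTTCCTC
Fcgr4 promoter: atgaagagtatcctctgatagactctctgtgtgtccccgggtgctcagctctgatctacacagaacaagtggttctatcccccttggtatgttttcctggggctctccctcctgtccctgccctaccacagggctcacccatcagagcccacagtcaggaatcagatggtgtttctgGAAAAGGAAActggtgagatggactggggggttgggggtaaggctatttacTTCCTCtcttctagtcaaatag
A match is a run of letters and not a measured binding site, and no binding was measured in these libraries.

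As a description over libraries that share region and title series, Pearson's r of log2(CPM + 1) was 0.946 between Fcgr1 and Fcgr3, 0.848 between Fcgr1 and Fcgr4 and 0.747 between Fcgr3 and Fcgr4. Some pairs with a gene that was not called came near the lowest of these. Fcgr3 and Fcer1g stood at 0.779, Fcgr1 and Fcer1g at 0.75, Fcer1g and Fcgrt at 0.742, and Fcgr3 and Fcgrt lower, at 0.602. The value was 0.783 between Fcgr2b and Fcgrt, 0.0442 between Fcgr2b and Fcgr4 and 0.0355 between Fcgr4 and Fcgrt. Among all genes tested, those most like Fcgr3 by this measure were Ctsb (0.984), a lysosomal protease, C1qc (0.982), a chain of complement C1q, and Itm2b (0.981). Those most like Fcgr1 were Ctsb (0.974), Blvrb (0.973), which encodes biliverdin reductase B, and Clec2l (0.965). Those most like Fcgr4 were Tspan7 (0.969), Ggt7 (0.964) and Klra2 (0.963), a receptor of the Ly49 family. Fcgr2b was most like Vrk3 (0.908), Dnaaf2 (0.902) and Slamf8 (0.895), Fcer1g most like Naxe (0.959), Pkig (0.943) and Tmem243 (0.936), and Fcgrt most like Psme2 (0.983), Sptssa (0.976) and Lamtor2 (0.967).

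Levels of cell markers are given in CPM as the sum over a list. In these sorted pools a lower sum can mean fewer cells of a type or less RNA per cell, which cannot be told apart. Between IS and cauda, 7 of 12 macrophage markers were higher in IS and 1 was higher in cauda. The macrophage sum was 22495 to 32572 CPM in IS, 19814 to 30980 in caput/corpus and 21368 to 26861 in cauda, and Cx3cr1 itself was at 788 ± 115 CPM in IS and 312 ± 51.7 in cauda (SD, n = 4 each). In the direction opposite to the activating receptors, 8 of 11 monocyte markers (728 to 1679 CPM in IS, 2791 to 4080 in caput/corpus, 4046 to 4663 in cauda), 6 of 10 dendritic cell markers (527 to 879, 1640 to 1945 and 1475 to 2771) and all 12 mast cell and basophil markers (47.6 to 129.5, 845 to 1189 and 1238 to 4468) were higher in cauda than in IS. In the same direction as the receptors, 9 of 10 epididymal epithelium markers were higher in IS, with a sum of 1035 to 2566 CPM in IS, 283 to 506 in caput/corpus and 2.90 to 6.08 in cauda. Of the B cell markers 4 of 7 were tested and 0 called (380 to 692, 502 to 753 and 509 to 1009 CPM), and of the 8 NK and T cell markers 1 was higher in IS (35.1 to 103.7, 61.5 to 144.6 and 0 to 56.9). Of 6 tested endothelial markers 1 was higher in cauda (15.6 to 53.8, 24.2 to 36.4 and 10.0 to 41.5), and 1 of 8 stromal and smooth muscle markers was higher in IS (31.0 to 426.5, 51.1 to 404.1 and 16.9 to 74.8). Neutrophil markers were at most 2.13 CPM in sum in any library, with 7 of the 8 genes at 0 reads in IS, 5 in caput/corpus and 4 in cauda. The part of these cell types in the differences of the 6 genes was not tested.

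Among 14 other Fc receptors and their partners, 9 were tested and 5 called between IS and cauda, with a median log2 difference of -1.17 against 0.05 over all genes tested. Fcrls, an Fc receptor-like gene known from microglia, was higher in IS, at 475.8 ± 119 CPM against 125 ± 41.9 in cauda (SD, n = 4 each; log2 difference 1.89 ± 0.27, edgeR adjusted p = 0.00121). Fcrl1 was also higher in IS (30.8 ± 5.18 against 5.88 ± 1.46 CPM; edgeR adjusted p = 0.00061). The receptor chains for IgE went the other way. Fcer1a, the IgE-binding chain, was at 1.13 ± 0.847 CPM in IS, 27.2 ± 7.75 in caput/corpus and 47.5 ± 33.4 in cauda, and it was called in IS against both other regions. Ms4a2, the beta chain of the same receptor, was at 0.779 ± 0.65 CPM in IS and 25.8 ± 17.8 in cauda (edgeR adjusted p = 0.00288). Both are high-affinity IgE receptor chains of mast cells and basophils, and they moved with the mast cell and basophil markers given above, a list that also holds Ms4a2, whereas the gamma chain that completes that receptor, Fcer1g, was not called. Fcrlb was higher in cauda (edgeR adjusted p = 0.0494). In IS versus caput/corpus Fcer1a was the only gene of the list called, and in cauda versus caput/corpus none was called.

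Receptors other than the Fc gamma receptors also pair with Fcer1g, and 4 of 7 tested were called between IS and cauda, Fcer1a among them. Lilra5, an activating leukocyte immunoglobulin-like receptor, was at 264 ± 46.6 CPM in IS, 95.6 ± 15.1 in caput/corpus and 30.1 ± 3.96 in cauda, and it was called in all 3 comparisons (log2 difference of IS over cauda 3.11 ± 0.13). Clec4n, which encodes the fungal mannan receptor Dectin-2, was at 105 ± 23.3 CPM in IS, 82.5 ± 30.6 in caput/corpus and 38.8 ± 8.91 in cauda and was called in cauda against both other regions. Tarm1 was higher in cauda than in IS at low levels (3.38 ± 1.25 against 0.197 ± 0.211 CPM). The chain Tyrobp, the counterpart of Fcer1g for another set of receptors, was at 955 ± 116 CPM in IS, 1027 ± 185 in caput/corpus and 970 ± 97.3 in cauda and was not called in any comparison. Of its 8-gene list, 3 were higher in IS than in cauda, Clec5a, Trem2 and Siglech, as Clec5a was against caput/corpus (130 ± 36.1 against 56.9 ± 25.3 CPM). Trem2, a lipid-sensing receptor, was at 331 ± 42.1 CPM in IS and 165 ± 24.7 in cauda. Sirpb1a was higher in caput/corpus than in IS. For both chains, levels did not pass the test between regions while some of the receptors that use them did.

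Downstream of the activation motif, 24 signalling genes were all tested, and between IS and cauda 6 were higher in IS and 5 higher in cauda, with a median log2 difference of 0.18. Syk, the kinase that docks on the phosphorylated motif, was at 225 ± 81.5 CPM in IS, 244 ± 75.4 in caput/corpus and 262 ± 85.0 in cauda and was not called in any comparison. The 4 called genes with the smallest adjusted p were all higher in cauda. They were Fgr, a Src family kinase (195.7 ± 65.5 CPM in cauda against 79.4 ± 13.6 in IS), the adaptor Lat2, the small GTPase Rac2 and Fyn, another Src family kinase (96.4 ± 20.7 against 37.0 ± 14.6 CPM). The genes higher in IS were Lyn, Lcp2, Blnk, Gab2, Card9 and Sh3bp2, named here after their values were seen. Lyn, the Src family kinase that phosphorylates both kinds of motif, was at 585 ± 15.6 CPM in IS and 478 ± 20.3 in cauda (log2 difference 0.29 ± 0.08, edgeR adjusted p = 0.0258). In IS versus caput/corpus Fgr and Rac2 were called, both lower in IS, and in cauda versus caput/corpus none of the 24 was called.

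On the inhibitory side 12 genes were tested, and between IS and cauda 2 were higher in IS and 3 higher in cauda, with a median log2 difference of -0.10. The phosphatase genes Inpp5d (547 ± 110 CPM in IS, 478 ± 93.5 in caput/corpus, 457 ± 89.2 in cauda) and Ptpn6 (672 ± 128, 704 ± 94.7 and 783 ± 213) were not called in any comparison. The adaptor Dok2, which dampens Ras signalling, was at 23.7 ± 11.1 CPM in IS, 92.6 ± 25.1 in caput/corpus and 175 ± 76.0 in cauda, and it was called in IS against both other regions. Its relative Dok3 went the other way, at 267 ± 34.5 CPM in IS and 122 ± 29.2 in cauda (log2 difference 1.11 ± 0.19, edgeR adjusted p = 0.00275). Ptpn22 and the ubiquitin ligase gene Cblb were higher in cauda, and Pag1 was higher in IS. None of the 12 was called in cauda versus caput/corpus.

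**Figure D4:**
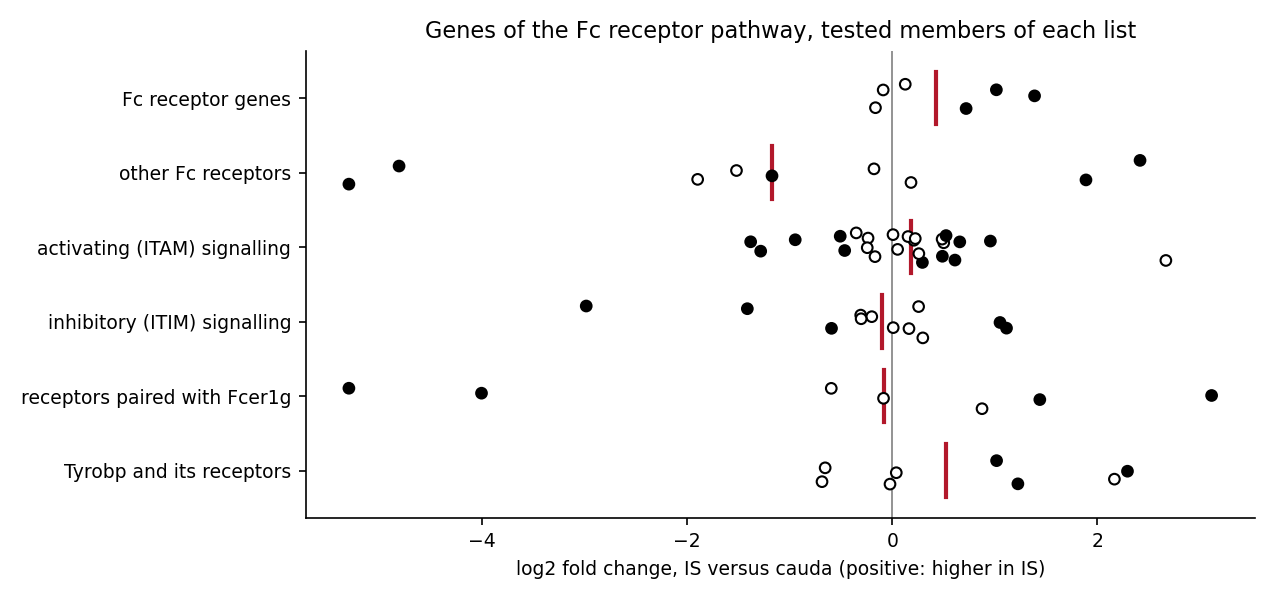
Log2 difference of IS over cauda for each tested gene of 6 lists, the 6 Fc receptor genes and 5 lists of partner and signalling genes, with filled points where the edgeR adjusted p was under 0.05 and a red line at the list's median. The median is 0.42 for the 6 Fc receptor genes, 0.18 for activating and -0.10 for inhibitory signalling, and filled points lie on both sides of 0 in 4 of the 5 other lists.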

How the data were processed

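The count files that the authors deposited give unnormalized counts by gene, and the deposited table holds RPKM, per the file headers. The submitters' processing notes name STAR, HTSeq, edgeR and build mm9, with no versions. The labels name a PicoRNA kit for extraction and the SMARTER v4 kit for libraries. Each RPKM value multiplied by the gene length in the table came out as whole multiples of the column's step (100% of values, tolerance 0.001), and the recovered reads of the column named for each sample were analysed. Of the 11 columns, 10 equalled a count file: 8 that of the same sample, while the files under caput/corpus 1 and cauda 1 equalled the columns of IS 2 and caput/corpus 1. The number in the title of these files (4 and 5) is the number that begins the column name. The file under IS 2, which equals no column, has title number 2, and no column name begins with that number. Which of the labels is right was not settled, and positions come from GRCm38, not mm9.

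Reads were normalized by TMM, filtered with filterByExpr by region and tested with glmQLFit and glmQLFTest in edgeR 4.0.16 (R 4.3.3), with region and title series as terms and Benjamini-Hochberg adjustment, and the code was tested on simulated data. CPM values use TMM library sizes. Within-library ratios were compared by exact permutation tests. Alternatives used DESeq2 1.42.0, limma 3.58.1 on log2(RPKM + 1) or voom, other filters, covariates and libraries. Members and lists were chosen with earlier results of these data known. All 6 members were named in every comparison, with 3 most correlated genes each, up to 4 called genes of smallest adjusted p per pathway list, and Tyrobp, B2m, Syk, Ptpn6 and Inpp5d.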

Additional observations from a re-analysis of the deposited data

Results flagged for a closer look

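Fcgr3 was at 316 RPKM in cauda replicate 2 against 179 to 198 RPKM in the other 3 cauda libraries, far enough from them to pass Dixon's 95% limit for 4 samples (gap over range 0.863, limit 0.829). The ratio of Fcgr3 to Fcgr2b in the same library, 1.85, passed it too (0.852). These were 2 of 20 groups examined, and chance marks about 1 group in 20. Both values come from a single library and share the Fcgr3 reads. The log2 difference of IS over cauda for Fcgr3 ranged from 0.84 to 1.15 when each library was left out in turn, and it was called each time.

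The count file under IS replicate 2 equals no column of the level table and entered only the comparison on the count files as filed, as an IS library. There edgeR called 4 of 15198 genes between IS and cauda, and none of the 6. Per 1000000 reads on genes this file held 176 for Fcgr1, 458 for Fcgr2b, 584 for Fcgr3, 130 for Fcgr4, 1031 for Fcer1g and 339 for Fcgrt, out of 30383072 reads in all. The 4 IS columns used in the report held 223 to 307 for Fcgr1, 521 to 610 for Fcgr2b, 615 to 1469 for Fcgr3, 188 to 241 for Fcgr4, 1395 to 1724 for Fcer1g and 248 to 477 for Fcgrt. Of the 6 genes only Fcgrt lay inside the range of the IS columns, and the other 5 lay below it. Against the caput/corpus columns, Fcgr1 (154 to 265), Fcgr3 (420 to 1054), Fcgr4 (114 to 170) and Fcgrt (279 to 542) lay inside the range, and Fcgr2b (591 to 777) and Fcer1g (1224 to 1606) lay below it. Against the cauda columns, Fcgr3 (419 to 669) and Fcgrt (305 to 469) lay inside, Fcgr1 (148 to 154) and Fcgr4 (61.3 to 98.4) lay above, and Fcgr2b (553 to 659) and Fcer1g (1195 to 1495) lay below. The file thus matched no region in all 6 genes.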

How the results depend on the processing

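The 3 activating receptors kept a positive difference of IS over cauda under all 25 alternatives, at 0.40 to 0.94 on the log2 scale for Fcgr1, 0.49 to 1.37 for Fcgr3 and 0.96 to 1.75 for Fcgr4. The number of the 6 genes called between IS and cauda was 3, and it was 3 each time 1 library was left out. It was 1 within Maj4, 0 within Maj3 and 0 with the counts as filed (edgeR). Of all genes tested, 1144, 30 and 4 were called in these settings. With limma on log2(RPKM + 1) without a filter Fcgr3 had an adjusted p of 0.0505. For IS versus caput/corpus 0 of the 6 were called, against 1 by DESeq2 and 2 by voom with quality weights. For cauda versus caput/corpus 0 were called, against 2 by DESeq2 and 1 by voom. Estimates near 0 changed sign. Fcer1g in IS over caput/corpus was -0.00164 with the replicate block, -0.0654 within Maj3, -0.0087 without IS replicate 1, -0.0289 without IS replicate 3 and -0.0745 without caput/corpus replicate 3, within -0.0745 to 0.101 over all libraries left out. Fcgrt in IS over cauda was 0.099 within Maj3, and the log2 ratio of Fcgr3 to Fcgr2b in cauda over caput/corpus was 0.118 in the 8 libraries without conflict and 0.0963 without caput/corpus replicate 1, within -0.472 to 0.0963 over all libraries left out. The count of ratio tests that passed was 0 of 12 in all 15 alternatives. That count says nothing about stability, since no test can pass unless most of the 12 reach the smallest possible p together.

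Over all genes the calls moved more, and the cause was not tested. The 571 calls of IS versus caput/corpus became 1262 with DESeq2, 233 without the title series, 0 within Maj3 (404 at an unadjusted p under 0.05), 914 with only the libraries of both regions, 1707 with voom, 0 with the counts as filed (1166 unadjusted), 954 in the 8 libraries and 344 with limma on log2(RPKM + 1) without a filter. With 1 library left out they ran from 234 (without caput/corpus replicate 2) to 1353 (without cauda replicate 1), and were 280, 244 and 374 without IS replicates 1, 3 and 4 and 269 without caput/corpus replicate 3. Of the 571, 120 were higher in IS, against 467 of 1262 with DESeq2. The 2488 calls of IS versus cauda became 1481 without the title series, 1144 within Maj4, 30 within Maj3, 4399 with voom and 4 with the counts as filed (3098 unadjusted), and ran from 1641 (without IS replicate 3) to 3124 with 1 library left out. The 93 calls of cauda versus caput/corpus became 637 with DESeq2, 184 without a filter, 28 within Maj4, 5 within Maj3, 8 with only the libraries of both regions, 668 with voom, 0 with the counts as filed (992 unadjusted), 52 in the 8 libraries, 169 with limma on log2(RPKM + 0.1) and 51 with limma without a filter, and ran from 29 (without caput/corpus replicate 1) to 205 (without cauda replicate 1) with 1 library left out. The other such libraries were IS replicates 1, 3 and 4 (58, 58 and 55), caput/corpus replicate 3 (58) and cauda replicate 4 (49).

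Whether the numbers in the labels pair the libraries was not settled. Deviations of same-numbered libraries correlated at -0.265 to 0.319 and those of differently numbered libraries at -0.557 to 0.145. These ranges overlap, and with so few libraries they cannot decide it. With the label numbers as a replicate block the calls were 398, 2362 and 41, and the 3 activating receptors were still called between IS and cauda.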
